A study of Homo sapiens with 8 samples.

Results

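The mRNAs described here encode the core machinery of DNA replication, 45 genes chosen by symbol for their known roles, out of 12235 genes with a value in at least 1 of the 8 libraries. All 45 were listed in each of the 4 libraries made without cycloheximide, and 16 to 43 of them in the libraries made with it. Their values are footprint densities from ribosome profiling, which sequences the mRNA fragments that ribosomes shield from nuclease, given as RPKM (footprints divided by the length of the coding sequence and by library depth).

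Replication starts at origins marked by the origin recognition complex, onto which CDC6 and CDT1 load the MCM2-7 helicase while the cell is in G1. CDC45 and the GINS complex then turn the loaded helicase on, polymerase alpha-primase lays primers, polymerases epsilon and delta copy the strands on the PCNA clamp, and FEN1 and LIG1 finish the lagging strand. Ribonucleotide reductase (RRM1 and RRM2), TYMS and TK1 provide the deoxynucleotides, and many of these genes are targets of the E2F transcription factors in dividing cells.

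The cells were HEK293T, an established line from human embryonic kidney with the large T antigen of SV40, a viral protein that binds the retinoblastoma proteins and so frees E2F. Cells were kept overnight in complete control medium with dialyzed serum and all amino acids added back (Suff), or in the same medium without arginine (Arg-), leucine (Leu-) or methionine (Met-), and each medium was used with and without pre-treatment with cycloheximide, a drug that stalls elongating ribosomes. Each of the 8 conditions had 1 library, so nothing was tested and no value has a replicate error. Intervals below are 95% intervals for counting error only, and reads amplified by PCR are not independent molecules. The 3 starved libraries of a series share its Suff library.

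The libraries without cycloheximide held 1302523 to 3139745 reads on coding sequences and listed mRNAs down to 5 reads. Those with cycloheximide held 538222 reads (Met-) to 6434043 (Leu-) and listed mRNAs only from 64 reads. Of 6 markers of HEK293 cells, VIM and NEFM were listed in 8 of 8 libraries, NEFL in 7, INA in 6, LHX1 in 4 and PAX2 in 2, and 6 markers of blood, liver, erythroid, islet, thyroid and muscle cells were listed in 0. Of 10 mRNAs of the integrated stress response, 8 could be compared without cycloheximide, and all 8 were at least 2-fold higher in each starved medium, with median log2 ratios of 3.22 (Arg-), 2.68 (Leu-) and 1.62 (Met-).

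Promoter sequence is shown for MCM6 and CDT1, which were denser in every starved medium, and for PCNA, which was denser in Arg- and Leu- and less dense in Met-. Each line gives the 250 bases before the RefSeq start, read 5′ to 3′ on the strand of the gene (GRCh38.p14). MCM6 lies at chr2:135876444-135876693 (minus strand), CDT1 at chr16:88803539-88803788 (plus strand) and PCNA at chr20:5126623-5126872 (minus strand). Capitals mark matches on either strand to the E2F-type strings TTTCCCGC, TTTGGCGC, TTTCGCGC and TTTGCCGC.
MCM6: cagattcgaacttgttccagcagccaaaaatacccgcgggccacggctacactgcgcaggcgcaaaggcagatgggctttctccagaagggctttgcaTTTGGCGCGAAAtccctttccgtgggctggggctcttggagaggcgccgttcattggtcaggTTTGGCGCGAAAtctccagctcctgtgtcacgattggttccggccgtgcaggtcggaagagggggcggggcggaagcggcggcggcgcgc
CDT1: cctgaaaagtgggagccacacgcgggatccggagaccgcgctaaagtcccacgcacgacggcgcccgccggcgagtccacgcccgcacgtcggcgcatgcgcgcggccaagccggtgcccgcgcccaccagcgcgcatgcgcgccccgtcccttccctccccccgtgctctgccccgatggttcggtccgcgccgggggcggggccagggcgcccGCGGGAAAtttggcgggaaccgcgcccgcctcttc
PCNA: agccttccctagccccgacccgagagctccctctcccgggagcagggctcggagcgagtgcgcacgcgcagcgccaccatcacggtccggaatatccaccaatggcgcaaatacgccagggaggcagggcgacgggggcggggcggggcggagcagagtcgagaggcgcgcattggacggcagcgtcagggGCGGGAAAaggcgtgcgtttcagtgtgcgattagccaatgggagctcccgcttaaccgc
MCM6 held 4 matches, which overlap in 2 blocks where TTTGGCGC on a strand meets TTTCGCGC on the other, and CDT1 and PCNA held 1 each. Of 39 replication genes with a window in the table, 14 held a match, in 14 of their 50 windows, against 2.79% of all 35116 windows of this length. RRM1, RRM2 and FEN1, which are taken up below, had a window and no match to these letters. A match describes the sequence and was not tied to any footprint density.

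Without cycloheximide, the replication mRNAs took 0.689% of the reads in Suff (95% Wilson interval 0.680% to 0.698%, 43 of 45 mRNAs with recovered read numbers), 0.914% in Arg- (0.900% to 0.929%), 1.01% in Leu- (0.996% to 1.03%) and 0.898% in Met- (0.882% to 0.914%). The share was higher in all 3 starved libraries. For single mRNAs the ratio of a starved library to Suff is given as log2 of (RPKM + 1) over (RPKM + 1), a scale that understates differences of low mRNAs, and mRNAs were compared where both libraries listed them at a mean of at least 10 RPKM. All 45 passed without cycloheximide. A ratio of densities cannot tell apart more mRNA per cell, more ribosomes on each mRNA and more cells in S phase, and no mRNA libraries were analysed here.

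In Arg- the median log2 ratio of the 45 mRNAs was 0.39, against -0.02 over 7448 mRNAs. At least 2-fold higher were 8 replication mRNAs (MCM3, MCM4, ORC3, CDC6, CDT1, PRIM2, LIG1 and RRM1), where 8.23% of all mRNAs were, and at least 2-fold lower were 0, where 5.95% of all were. In Leu- the median was 0.59 against 0.14 over 7558 mRNAs. There 8 were at least 2-fold higher (MCM2, MCM3, MCM5, MCM7, ORC3, PRIM1, RFC1 and RRM1) against 6.85% of all, and 0 were at least 2-fold lower against 2.06% of all.

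In Met- the median was 0.39 against 0.32 over 7884 mRNAs, so the replication mRNAs as a group lay close to the middle of the library, with 24 of 45 above the median of all. At least 2-fold higher were 15 (MCM2, MCM3, MCM4, MCM5, MCM10, ORC1, ORC3, GINS3, RFC1, POLA1, PRIM2, POLD1, POLD3, FEN1 and RRM1), with 20.2% of all mRNAs past the same fold. At least 2-fold lower was 1, RRM2, with 5.34% of all. In Arg- and Leu-, 32 and 35 of 45 lay above the median of all mRNAs. Counting intervals lay above 0 for 23 (Arg-), 31 (Leu-) and 24 (Met-) of the 43 mRNAs that had one, and below 0 for 8, 3 and 5. The same count over all mRNAs was not made, so these counts cannot be set against a share. The median of all mRNAs was itself above 0 in Leu- and Met-, and below it in Arg-.

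**Figure D1:**
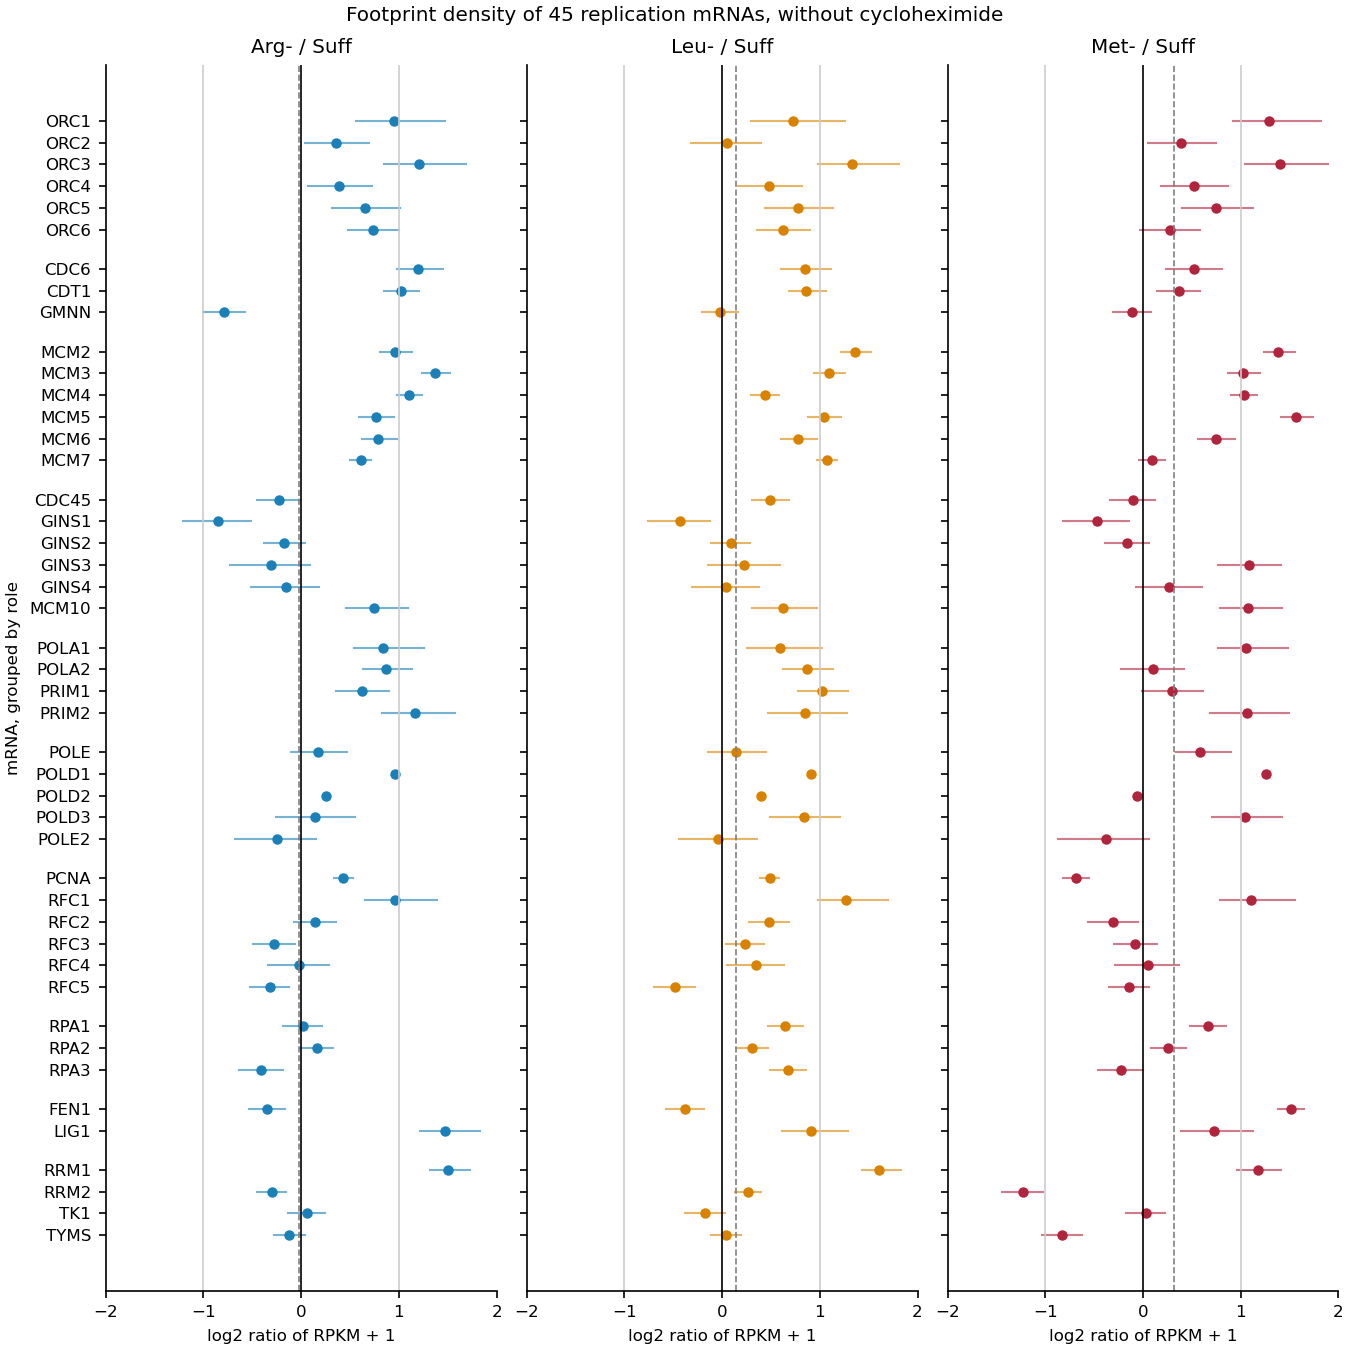
Log2 ratio of footprint density (RPKM + 1) of each starved library over Suff, without cycloheximide, for 45 replication mRNAs grouped by role from origin recognition (top) to nucleotide supply (bottom). Points are single libraries, bars are 95% counting intervals (none for POLD1 and POLD2), grey lines mark 2-fold and the dashed line is the median of all mRNAs. The MCM2-7 points all lie right of 0, and RRM2 in Met- is the point left of -1.

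The origin recognition complex, the 6-subunit platform that marks where replication begins, was denser in every starved library, with median log2 ratios of 0.69 (Arg-), 0.68 (Leu-) and 0.63 (Met-). The density of ORC3 was 13.4 RPKM in Suff, 32.2 in Arg-, 35.3 in Leu- and 37.0 in Met-. Its log2 ratios were 1.21 (counting interval 0.85 to 1.68), 1.33 (0.98 to 1.81) and 1.40 (1.04 to 1.89), past 2-fold in each medium. ORC1, a subunit that binds ATP and CDC6, had 10.2 RPKM in Suff, 20.6 in Arg-, 17.6 in Leu- and 26.4 in Met-, with log2 ratios of 0.95, 0.73 and 1.29. The other subunits, ORC2, ORC4, ORC5 and ORC6, were below 2-fold in every starved library and ranged from 0.05 (ORC2, Leu-) to 0.78 (ORC5, Leu-).

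The loading factors and their inhibitor did not go the same way. CDC6, the ATPase that recruits the helicase to the origin, had 52.6 RPKM in Suff, 122 in Arg-, 95.7 in Leu- and 75.7 in Met-, with log2 ratios of 1.20 (0.98 to 1.45), 0.85 (0.61 to 1.12) and 0.52 (0.24 to 0.81). CDT1, which delivers MCM2-7, had 96.5, 197, 176 and 124 RPKM in the same order, with log2 ratios of 1.02 (0.85 to 1.21), 0.86 (0.68 to 1.06) and 0.36 (0.15 to 0.59). For both, Arg- was highest and Met- the lowest of the starved libraries without cycloheximide, an order that CDT1 did not keep with the drug.

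GMNN (geminin), which binds CDT1 and blocks a further round of loading, had 403 RPKM in Suff, 234 in Arg-, 398 in Leu- and 374 in Met-. Its log2 ratio was -0.79 (-1.0 to -0.58) in Arg-, -0.02 (-0.20 to 0.16) in Leu- and -0.11 (-0.30 to 0.08) in Met-, so only the Arg- value stood outside counting error. The density of GMNN per that of CDT1 was 4.18 (3.73 to 4.69) in Suff, 1.19 (1.01 to 1.39) in Arg-, 2.26 (1.96 to 2.60) in Leu- and 3.01 (2.54 to 3.56) in Met-. The inhibitor was thus the denser mRNA in each library without cycloheximide, by the smallest margin in Arg-. With cycloheximide the same ratio was 7.16 (6.0 to 8.57) in Suff, 2.35 (2.15 to 2.57) in Arg- and 3.68 (3.44 to 3.94) in Leu-, in the same order as without it. This order leaves out Met-, where GMNN was not listed. Listing GMNN there required 190 RPKM and CDT1 had 237, so GMNN was below CDT1 if its absence came from that minimum.

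The MCM2-7 mRNAs, which encode the 6 subunits of the hexameric ring that unwinds DNA, held 0.158% of the reads in Suff (0.154% to 0.162%), 0.299% in Arg- (0.291% to 0.308%), 0.313% in Leu- (0.304% to 0.322%) and 0.296% in Met- (0.286% to 0.305%). All 6 had a ratio above 0 in each starved library, with median log2 ratios of 0.87, 1.06 and 1.03, and MCM7 in Met- (0.09) was the single value below the median of all mRNAs. The subunits enter the ring in equal number, yet their densities per length in Suff spanned 3.33-fold, from 70.8 RPKM (MCM6) to 235 RPKM (MCM7), and MCM6 was lowest and MCM7 highest in each of the 4 libraries.

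MCM2 had 72.1 RPKM in Suff, 141 in Arg-, 186 in Leu- and 190 in Met-, with log2 ratios of 0.96 (0.80 to 1.13), 1.36 (1.21 to 1.52) and 1.38 (1.24 to 1.56). MCM3 had 83.0, 216, 178 and 170 RPKM, with log2 ratios of 1.37 (1.23 to 1.53), 1.09 (0.94 to 1.26) and 1.02 (0.87 to 1.20). MCM5 had 82.0, 140, 170 and 244 RPKM, with log2 ratios of 0.76 (0.59 to 0.95), 1.04 (0.88 to 1.22) and 1.56 (1.41 to 1.74). These subunits differed in which starvation gave the largest value: Arg- for MCM3, Met- for MCM5.
MCM4 had 119, 257, 161 and 243.2 RPKM, with log2 ratios of 1.11 (0.98 to 1.24), 0.44 (0.29 to 0.58) and 1.03 (0.90 to 1.17). MCM7 had 235, 360, 496 and 251 RPKM, with log2 ratios of 0.61 (0.50 to 0.72), 1.07 (0.98 to 1.18) and 0.09 (-0.04 to 0.22). MCM6 had 70.8, 123, 122 and 119 RPKM, with log2 ratios of 0.79, 0.78 and 0.74. MCM6 therefore lay at nearly the same level in the 3 starved media, while MCM4 was lower in Leu- and MCM7 in Met-. Set against Leu- directly, MCM7 in Met- had a log2 ratio of -0.98 (-1.11 to -0.86).

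The factors that activate the helicase stayed nearer to Suff. Their median log2 ratios were -0.20 (Arg-), 0.16 (Leu-) and 0.08 (Met-), and their share of reads was 0.0658% in Suff, 0.0587% in Arg-, 0.0761% in Leu- and 0.0740% in Met-. GINS1, a subunit of the ring-shaped GINS complex, had 173 RPKM in Suff, 95.6 in Arg-, 128 in Leu- and 125 in Met-, with log2 ratios of -0.85 (-1.21 to -0.52), -0.43 (-0.76 to -0.12) and -0.47 (-0.82 to -0.14). It was below Suff in every starved library. GINS3, its partner, had 72.2, 58.2, 84.4 and 154 RPKM and was past 2-fold in Met- (log2 ratio 1.08, 0.77 to 1.41).
MCM10, which helps to start unwinding, had 21.8, 37.3, 34.1 and 47 RPKM and log2 ratios of 0.75, 0.62 and 1.07. CDC45, GINS2 and GINS4 lay between -0.23 (CDC45, Arg-) and 0.49 (CDC45, Leu-).

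**Figure D2:**
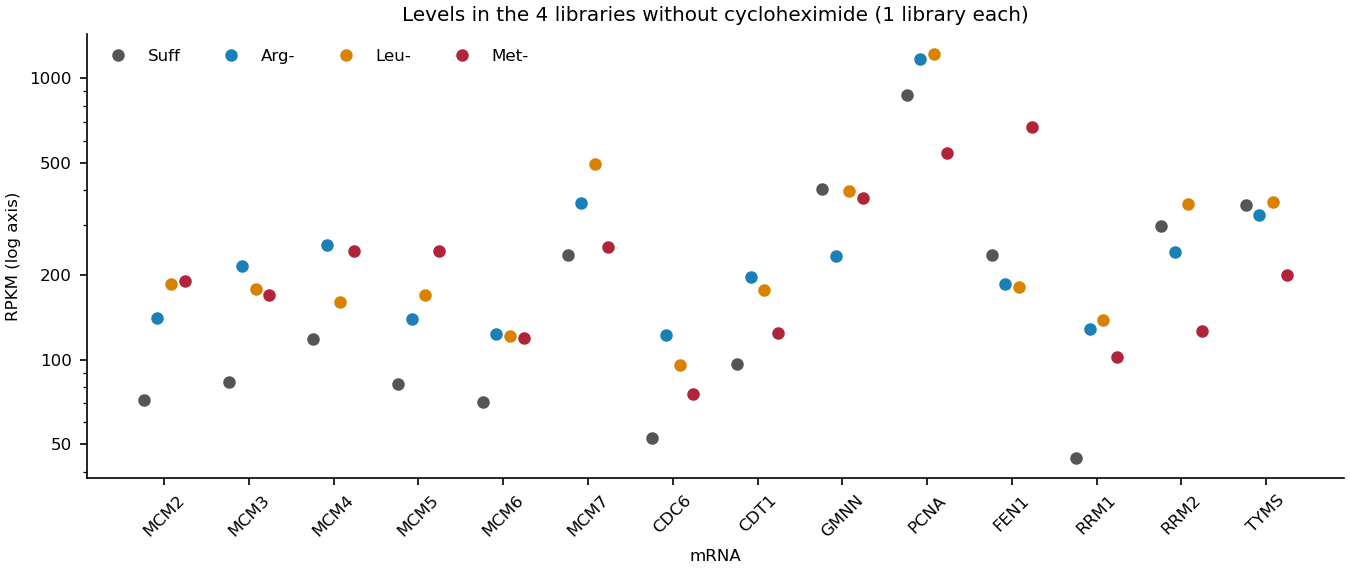
Footprint density (RPKM, log axis) of 14 replication mRNAs in the 4 libraries without cycloheximide, 1 library per medium. Suff is the lowest point for MCM2 to MCM7, CDC6, CDT1 and RRM1, while FEN1 is highest and PCNA, RRM2 and TYMS are lowest in Met-.

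All 4 mRNAs of polymerase alpha-primase, which lays the RNA-DNA primers, had ratios above 0 in each starved medium, with median log2 ratios of 0.85 (Arg-), 0.86 (Leu-) and 0.68 (Met-). PRIM2, the large primase subunit, had 23.3 RPKM in Suff, 53.6 in Arg-, 42.8 in Leu- and 49.7 in Met-, with log2 ratios of 1.17 (0.83 to 1.58), 0.85 (0.47 to 1.28) and 1.06 (0.69 to 1.49). PRIM1, the catalytic primase subunit, had 65.1, 101, 133 and 80.2 RPKM and was past 2-fold in Leu- (1.02, 0.77 to 1.29). POLA1, the polymerase subunit, had 9.90, 18.5, 15.5 and 21.6 RPKM and was past 2-fold in Met- (1.05, 0.76 to 1.49). POLA2, its accessory subunit, ranged from 0.10 (Met-) to 0.87 (Arg-).

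Of the replicative polymerases, POLD1 is the catalytic subunit of polymerase delta and POLE that of polymerase epsilon. POLD1 had 24.2 RPKM in Suff, 48.0 in Arg-, 46.3 in Leu- and 59.1 in Met-, with log2 ratios of 0.96, 0.91 and 1.26. POLE had 12.6, 14.3, 14.02 and 19.4 RPKM, with log2 ratios of 0.17 (-0.11 to 0.47), 0.15 (-0.15 to 0.45) and 0.58 (0.34 to 0.90), so its Arg- and Leu- values lay within counting error of Suff. POLD3, an accessory subunit of polymerase delta, had 32.7, 36.3, 59.1 and 68.5 RPKM and was past 2-fold in Met- (1.04, 0.71 to 1.42). POLD2 and POLE2 ranged from -0.38 (POLE2, Met-) to 0.40 (POLD2, Leu-).

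PCNA, the sliding clamp that holds the polymerases on DNA, was the densest of the 45 in Suff, at 870 RPKM, and had 1173 RPKM in Arg-, 1221 in Leu- and 541 in Met-. Its log2 ratio was 0.43 (0.34 to 0.53) in Arg-, 0.49 (0.39 to 0.59) in Leu- and -0.68 (-0.82 to -0.55) in Met-. Met- was the one starved library below Suff. RFC1, the large subunit of the clamp loader, had 11.2, 22.7, 28.3 and 25.2 RPKM, with log2 ratios of 0.96 (0.65 to 1.39), 1.27 (0.98 to 1.70) and 1.10 (0.79 to 1.55). The small subunits RFC2 to RFC5 ranged from -0.48 (RFC5, Leu-) to 0.48 (RFC2, Leu-), and the density of RFC2 per that of RFC1 was 13.4 (11.0 to 16.5) in Suff, 7.27 (5.87 to 9.04) in Arg-, 7.40 (6.08 to 9.06) in Leu- and 4.81 (3.77 to 6.16) in Met-.

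RPA1, RPA2 and RPA3 form the complex that coats single-stranded DNA. Their median log2 ratios were 0.02 (Arg-), 0.64 (Leu-) and 0.26 (Met-), with none past 2-fold against Suff. RPA3, the smallest subunit, had 513 RPKM in Suff, 387 in Arg-, 820 in Leu- and 438 in Met-, and Leu- against Arg- gave a log2 ratio of 1.08 (0.85 to 1.32).

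FEN1, the nuclease that cuts the flaps between Okazaki fragments, had 236 RPKM in Suff, 185 in Arg-, 181 in Leu- and 673 in Met-. Its log2 ratio was -0.35 (-0.53 to -0.16) in Arg-, -0.38 (-0.57 to -0.19) in Leu- and 1.51 (1.38 to 1.65) in Met-. The Met- library stood apart from the other 3, with a log2 ratio of 1.89 (1.71 to 2.08) against Leu- and 1.86 (1.68 to 2.04) against Arg-. PCNA, which binds FEN1, had a ratio of the opposite sign in each starved medium. The density of PCNA per that of FEN1 was 3.69 (3.41 to 4.00) in Suff, 6.33 (5.63 to 7.14) in Arg-, 6.74 (5.95 to 7.64) in Leu- and 0.804 (0.723 to 0.893) in Met-. LIG1, the ligase that seals the nicks, had 17.5, 50.4, 33.9 and 29.8 RPKM, with log2 ratios of 1.47 (1.22 to 1.83), 0.91 (0.61 to 1.29) and 0.73 (0.39 to 1.13).

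The mRNAs of nucleotide supply split within a single enzyme. RRM1, the large subunit of ribonucleotide reductase, had 44.7 RPKM in Suff, 129 in Arg-, 138 in Leu- and 102 in Met-, with log2 ratios of 1.504 (1.32 to 1.73), 1.61 (1.43 to 1.84) and 1.17 (0.96 to 1.42), the highest of the 45 in Arg- and Leu-. RRM2, the small subunit, had 298, 242, 358 and 127 RPKM, with log2 ratios of -0.30 (-0.45 to -0.15), 0.26 (0.13 to 0.40) and -1.23 (-1.45 to -1.03). The density of RRM2 per that of RRM1 was 6.67 (5.91 to 7.55) in Suff, 1.88 (1.66 to 2.13) in Arg-, 2.59 (2.30 to 2.91) in Leu- and 1.24 (1.04 to 1.48) in Met-. The intervals of the starved libraries did not reach that of Suff.
TYMS, which makes thymidylate, had 355 RPKM in Suff, 326 in Arg-, 365 in Leu- and 200 in Met-, with log2 ratios of -0.12 (-0.28 to 0.04), 0.04 (-0.12 to 0.19) and -0.83 (-1.04 to -0.63). TK1, the salvage kinase for thymidine, had 270, 281, 239 and 275 RPKM, with log2 ratios of 0.06, -0.17 and 0.03. In Met- the lowest ratios of the 45 were those of RRM2, TYMS and PCNA.

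**Figure D3:**
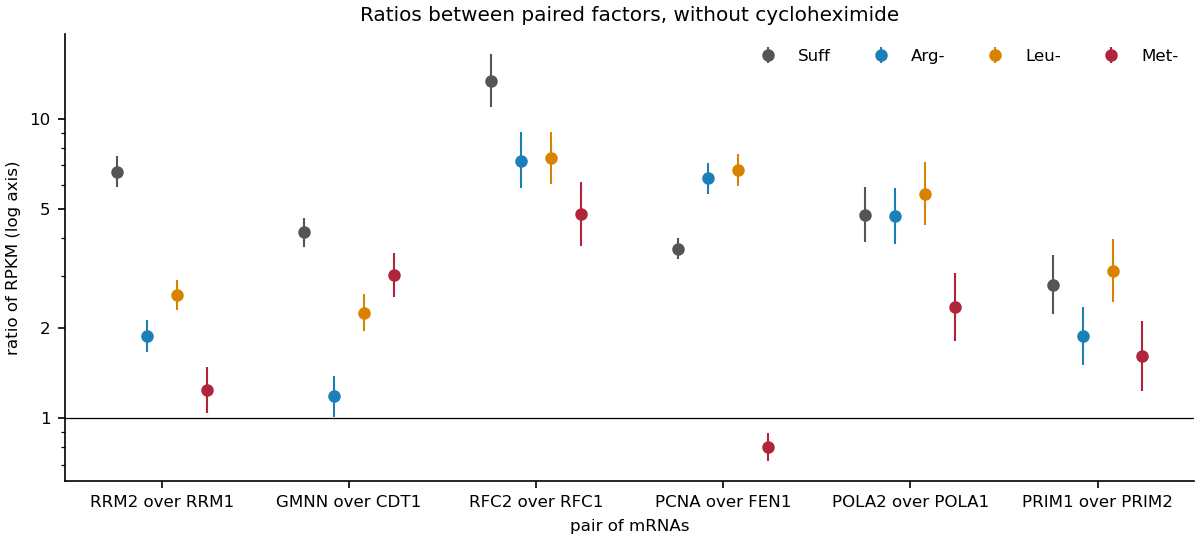
Ratio of the RPKM of paired replication factors (log axis) in the 4 libraries without cycloheximide, with 95% counting intervals. RRM2 over RRM1 drops from 6.67 in Suff to 1.24 in Met-, GMNN over CDT1 is lowest in Arg- at 1.19, and PCNA over FEN1 is below 1 in Met- alone.

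In the series with cycloheximide, mRNAs with under 64 reads are not listed, so 31 of 45 could be compared in Arg- and Leu- and 15 in Met-, and the counts below cover only these. MCM7 and FEN1 were listed in none of the 4 libraries, although a density of 11.6 RPKM (MCM7) or 21.9 RPKM (FEN1) would have reached 64 reads in Suff. RRM1 was listed in Arg- alone, at 87.7 RPKM on a transcript with a coding length of 207 nt. No ratio is given for these 3 mRNAs. In Suff, 22 of the 31 replication mRNAs were listed on the transcript used without cycloheximide and 9 on another, MCM10, GINS3 and PRIM1 among them.

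In Arg- with cycloheximide the median log2 ratio of 31 replication mRNAs was 0.93, against -0.23 over 5074 mRNAs, and 29 lay above that median of all. At least 2-fold higher were 14, with 16.6% of all mRNAs, and at least 2-fold lower were 0, with 19.7% of all. In Leu- the median was 0.75 against 0.02 over 5208 mRNAs, with 12 at least 2-fold higher against 12.1% of all and 0 at least 2-fold lower against 7.28%. In Met- the median was 1.17 against 0.89 over 1890 mRNAs, with 8 of 15 at least 2-fold higher against 46.7% of all and 2 (PCNA and RFC2) at least 2-fold lower against 9.79%. The Met- median rests on the 15 mRNAs listed in both libraries: with unlisted mRNAs counted as 0, 27 could be compared, the median turned to -0.62 and 13 were at least 2-fold lower.

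The listed MCM2-7 mRNAs were past 2-fold for 5 of 5 in Arg-, 3 of 5 in Leu- and 5 of 5 in Met-. In Met-, listing alone required 43.8 RPKM for MCM2, 54.0 for MCM5 and 48.3 for MCM6, where Suff had 18.7, 24.7 and 18.9. Being past 2-fold in Met- was thus set by listing for MCM2, MCM5 and MCM6. For MCM3 and MCM4 listing required 46.5 and 45.9 RPKM, less than 2-fold above the 26.3 and 35.2 in Suff. MCM2 had 18.7 RPKM in Suff, 53.6 in Arg-, 48.9 in Leu- and 108 in Met-. MCM3 had 26.3, 157, 68.3 and 101 RPKM. MCM4 had 35.2, 212, 58.7 and 96.9 RPKM.
MCM4 was again lowest of the starved libraries in Leu-, with a log2 ratio of 0.72 (0.53 to 0.95) there and 2.56 (2.40 to 2.79) in Arg-. MCM5 had 24.7, 78.0, 81.9 and 178 RPKM and was again highest in Met- (2.80, 2.54 to 3.17). MCM6 had 18.9, 75.8, 37.2 and 94.3 RPKM. It did not keep its nearly level values here, with a log2 ratio of -1.01 (-1.18 to -0.87) for Leu- against Arg-.

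CDC6 had 15.3 RPKM in Suff, 120 in Arg- and 47.7 in Leu-, with log2 ratios of 2.88 (2.60 to 3.34) and 1.58 (1.27 to 2.03), and was not listed in Met-. CDT1 had 41.3, 124, 135 and 237 RPKM, with log2 ratios of 1.57, 1.69 and 2.49. Met- was thus the highest of the starved libraries for CDT1, where it was the lowest without the drug. GMNN had 295, 292 and 498 RPKM in Suff, Arg- and Leu-, with log2 ratios of -0.01 and 0.75. PCNA had 374, 1016, 591 and 183 RPKM, with log2 ratios of 1.44 (1.33 to 1.56), 0.66 (0.54 to 0.78) and -1.03 (-1.39 to -0.69), so its direction in each medium was that seen without the drug.

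RRM2 did not keep its direction. With cycloheximide it had 76.0 RPKM in Suff, 213 in Arg-, 255 in Leu- and 172 in Met-, with log2 ratios of 1.47 (1.29 to 1.68), 1.74 (1.56 to 1.94) and 1.17 (0.86 to 1.5), where Met- without the drug gave -1.23. Suff was the lowest library for RRM2 with cycloheximide, and above Arg- and Met- without it. Listing in Met- with the drug required 88.3 RPKM, above the 76.0 in Suff. A ratio below 0 could thus not have been seen there, though the 172 RPKM of RRM2 lay above that minimum. TYMS had 361, 292, 389 and 309 RPKM, with log2 ratios of -0.30, 0.11 and -0.22.
Of the remaining members past 2-fold without cycloheximide, ORC1 was listed at 15.5 RPKM in Arg- and 10.1 in Leu-, ORC3 at 30.4 and 23.0, PRIM2 at 60.9 and 22.0, POLA1 at 10.8 and 6.63, POLD3 at 42.4 and 61.4, LIG1 at 31.1 and 19.6, and RFC1 at 29.0 and 27.7. None of these 7 was listed in Suff, so they have no ratio there. POLD1 was listed at 23.8 RPKM in Arg-, 23.9 in Leu- and 73.2 in Met-. MCM10 had 13.2, 24.3 and 15.4 RPKM in Suff, Arg- and Leu-, GINS3 had 79.0, 85.0 and 77.5, and PRIM1 had 71.8, 159 and 161.

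Between the series, which do not share a library, the log2 ratio had the same sign for 23 of 31 replication mRNAs in Arg-, 25 of 31 in Leu- and 12 of 15 in Met-. The ratio was larger with cycloheximide for 26, 23 and 12 of them. Neither count was made over all mRNAs, whose medians were -0.02, 0.14 and 0.32 without cycloheximide and -0.23, 0.02 and 0.89 with it. In Met- with the drug, MCM2 to MCM6, CDT1, RPA1, RRM2 and CDC45 could be listed only above their Suff density. Their ratios could thus only be above 0, so the 12 of 15 in Met- cannot show how far signs were kept. Listing there required 64.3 RPKM for RPA1, 72.6 for CDT1, 48.3 for MCM6 and 88.3 for RRM2, where Suff had 21.1, 41.3, 18.9 and 76.0. Larger ratios for these mRNAs were thus set by listing. The same held for CDC45 (99.6 against 72.0 RPKM in Suff), whose minimum is less sure because its read number was not recovered. Spearman's rho across the same replication mRNAs was 0.72, 0.57 and 0.80, as a description over mRNAs that share libraries and depth. RRM2 in Met- was the 1 mRNA past 2-fold in opposite directions. Drug, duplicate handling, minimum read number and the counting of the stop codon in the coding length all differed between the series. For 9 of the 31 mRNAs listed in Suff with cycloheximide, the transcript differed between the series as well. For these, the comparison between series sets ratios of different transcripts side by side. The part of each in these differences was not tested.

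**Figure D4:**
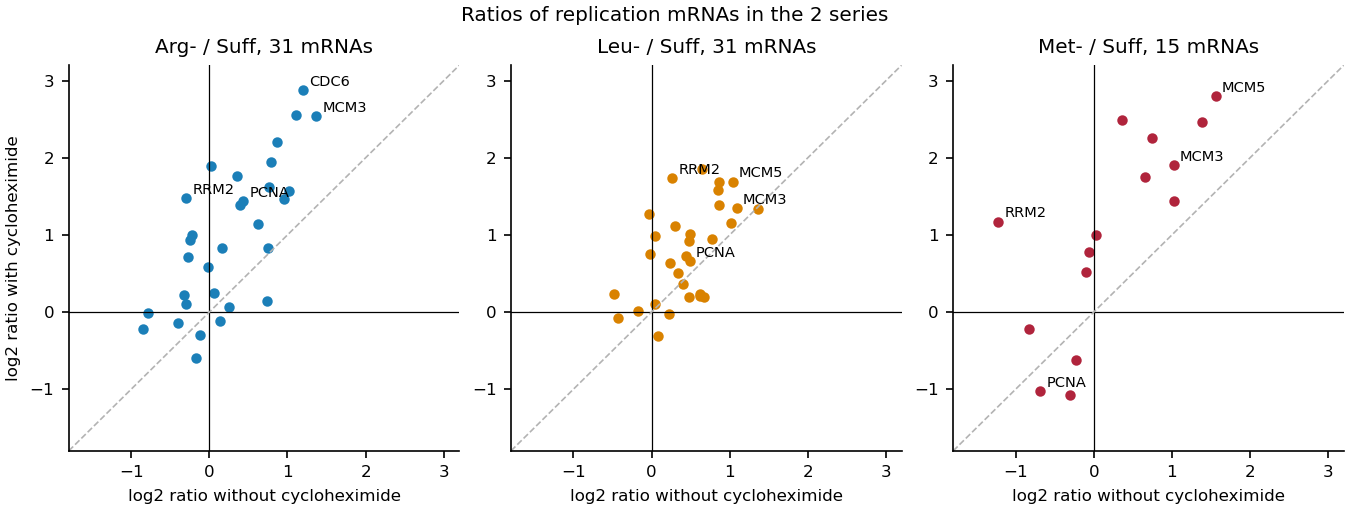
Log2 ratio over Suff with cycloheximide (vertical) against without it (horizontal) for the replication mRNAs compared in both series, 31 in Arg- and Leu- and 15 in Met-. The dashed line marks equal ratios: 26, 23 and 12 points lie above it, and RRM2 lies in the upper left part in Met-.

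Among the replication mRNAs, those with longer coding sequences had higher ratios. Without cycloheximide Spearman's rho between coding length and log2 ratio over the 45 mRNAs was 0.71 (Arg-), 0.59 (Leu-) and 0.64 (Met-), where over all mRNAs with a length it was 0.36, 0.31 and 0.44. The 15 shortest (363 to 1089 nt, among them the GINS and small RFC subunits, PCNA, GMNN and TYMS) had median log2 ratios of -0.16, 0.22 and -0.11. The 15 longest (2136 to 6858 nt, among them MCM2 to MCM7, RFC1 and the large polymerase subunits) had 0.96, 0.91 and 1.07. The 15 longest held 5 of the 8, 7 of the 8 and 11 of the 15 mRNAs past 2-fold.

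Set against the median of all mRNAs of the same length decile, the median log2 ratio of the 45 was 0.28 in Arg-, 0.33 in Leu- and 0.01 in Met-, with 33, 36 and 23 of 45 above 0. With cycloheximide the same medians were 1.02 and 0.62 in Arg- and Leu-, with 30 of 31 above 0 in both, and near 0 in Met-, with 7 of 15 above. After this setting RRM1 kept log2 differences of 1.17 (Arg-) and 1.21 (Leu-), FEN1 one of 1.27 (Met-), and RRM2 one of -1.58 (Met-), all without cycloheximide. Whether length itself has a part in the ratios was not tested. The share of the missing amino acid among the codons followed the ratios less closely: without cycloheximide rho over the 45 was 0.12 for arginine codons in Arg-, -0.19 for leucine codons in Leu- and -0.32 for methionine codons in Met-.

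**Figure D5:**
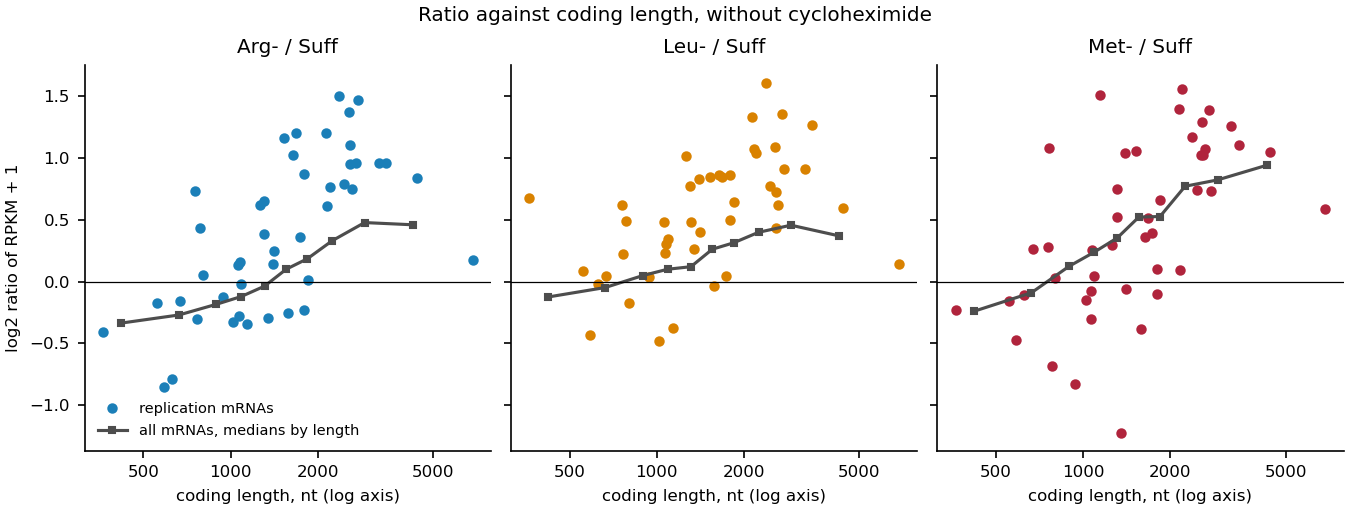
Log2 ratio over Suff without cycloheximide against coding length (nt, log axis). Coloured points are the 45 replication mRNAs and grey squares are medians of all mRNAs in 10 length classes. Ratios are higher for longer mRNAs in both, and in Arg- and Leu- most long replication mRNAs lie above the grey line.

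Other replication mRNAs and mitotic mRNAs were compared in the same way. Of 44 other mRNAs of replication (origin firing and fork factors, topoisomerases, histone chaperones and enzymes of nucleotide supply), 36, 36 and 37 could be compared without cycloheximide, with median log2 ratios of 0.22 (Arg-), 0.40 (Leu-) and 0.23 (Met-). Of them 4, 1 and 7 were at least 2-fold higher, where 8.23%, 6.85% and 20.2% of all mRNAs were, and 1, 0 and 0 at least 2-fold lower, where 5.95%, 2.06% and 5.34% of all were. Of 30 mitotic mRNAs, 27 were compared, with medians of 0.21, 0.41 and 0.25, and 5, 4 and 3 were at least 2-fold higher and 0, 0 and 4 at least 2-fold lower, against the same shares of all mRNAs. Without cycloheximide both medians were below the 0.39 and 0.59 of the replication machinery in Arg- and Leu-. With it the mitotic median was above that of the machinery, at 1.06 against 0.93 in Arg- and 0.82 against 0.75 in Leu-. There 11 and 9 of 20 mitotic mRNAs were at least 2-fold higher, and 3 and 0 at least 2-fold lower. The other replication mRNAs had medians of 0.42 and 0.62 there. Of 29 compared, 12 and 6 were at least 2-fold higher, and 2 and 0 at least 2-fold lower. Of all mRNAs in Arg- and Leu- with cycloheximide, 16.6% and 12.1% were at least 2-fold higher, and 19.7% and 7.28% at least 2-fold lower. None of these differences between lists was tested.
Past 2-fold in both series were SUPT16H, a subunit of the histone chaperone FACT, in Arg- (1.13 without and 2.63 with cycloheximide), DNMT1, the maintenance DNA methyltransferase, in Arg- (1.08 and 1.08) and Met- (1.07 and 1.52), and the spindle factors TPX2 (1.43 and 2.08 in Arg-, 1.56 and 1.46 in Leu-) and KIF23 (1.04 and 1.70 in Arg-, 1.005 and 1.003 in Leu-).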

How the data were processed

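Footprint densities of 8 HEK293T libraries (1 per condition) were used. Per the methods, the authors removed adaptors, discarded reads outside a set length range, trimmed low-quality bases, aligned reads to the human transcriptome (GRCh38) with Bowtie without mismatch and kept uniquely mapped reads, so footprints shared by isoforms or near-identical copies are lost. They deposited RPKM per Ensembl transcript. The submitters' processing notes also name cutadapt, and the records mark the series without cycloheximide as free of duplicate reads. The annotation release is not given in the sources used here. From these values, 96.7% to 97.1% of transcripts were matched to GENCODE release 44 and the highest transcript of each gene was used. Read numbers were recovered from whole steps of RPKM times coding length (tolerance 0.01), which 97.2% to 97.4% of matched transcripts met. Ratios were log2 of RPKM with a pseudocount of 1, over mRNAs listed in both libraries at a mean of at least 10 RPKM. Counting intervals are exact conditional binomial intervals, and shares have Wilson intervals. POLD1 and POLD2 had no recovered reads. With n = 1 per condition no test was run. The members, lists, naming rule and 2-fold threshold were chosen with earlier results of these data known. Values were named for MCM2 to MCM7, CDC6, CDT1, GMNN, PCNA, RRM2, TYMS and each member past 2-fold without cycloheximide, and for other lists where both series passed 2-fold. GINS1, ORC2, POLE, RPA3, TK1 and other members were named in addition, with their values in view. On data simulated on Suff without cycloheximide, 133 of 133 changed mRNAs were called rightly at 2-fold and 25 of 6897 unchanged ones were called. How often a change close to 2-fold is called was not tested. How often calls between single real libraries are right was not tested, in either series. Alternatives were a pseudocount of 0.1, a minimum of 50 RPKM, no filter, unlisted mRNAs as 0, summed transcripts, centring on all mRNAs and, added after seeing the data, centring by coding length. Promoter windows are from RefSeq (GRCh38.p14). The software was Python 3.11.15 with pandas 2.3.3, scipy 1.17.1, numpy 2.4.6 and, for plots, matplotlib 3.10.9.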

Additional observations from a re-analysis of the deposited data

Results flagged for a closer look

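The log2 ratio of RRM2 in Met- against Suff was -1.23 without cycloheximide and 1.17 with it, a difference of -2.40 between the series. The result was picked out because the single library pair of each series moved past 2-fold in opposite directions. With cycloheximide, listing RRM2 in Met- required 88.3 RPKM, against 76.0 RPKM in Suff, so only a ratio above 0 could be seen there. With 1 library per condition the difference was not tested.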

How the results depend on the processing

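Of 126 recomputed medians and counts, 101 kept their value within the limits set. A pseudocount of 0.1, no filter and summed transcripts moved none of the 18 results each. With a minimum of 50 RPKM, the replication mRNAs at least 2-fold higher numbered 5 (Arg-) and 8 (Met-) without cycloheximide, and 9 (Arg-) and 7 (Leu-) with it, where the medians were 0.65 and 0.51. Without cycloheximide the medians counted as kept, yet they fell at that minimum. They went from 0.39 to 0.15 in Arg- (32 mRNAs), from 0.59 to 0.48 in Leu- (33) and from 0.39 to 0.27 in Met- (33). Centring on the median of all mRNAs gave 4 (Leu-) and 4 (Met-) at least 2-fold higher without cycloheximide (8 in Arg-, as before), a Met- median of 0.075 and 2 lower, and in Met- with cycloheximide a median of 0.28, 5 higher and 4 lower. Centring by coding length, added after seeing the data, gave 4 (Arg-), 1 (Leu-) and 2 (Met-) higher and a Met- median of 0.012 without cycloheximide, and with it 7 (Leu-) and 2 (Met-) higher and a Met- median of -0.0026, a reversed sign. Counting unlisted mRNAs as 0 gave medians with cycloheximide of 1.45 (Arg-), 0.98 (Leu-) and -0.62 (Met-, reversed), with 23 higher in Arg- and 13 lower in Met-. That setting and the higher minimum change which mRNAs are compared. The cause of the other shifts was not tested. No paired analysis was possible because each condition had 1 library and the labels carry no replicate numbers. Depth limits the Met- library with cycloheximide most, where 16 of 45 mRNAs were listed.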
